A study of Mus musculus with 12 samples.

Results

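ILC2-3 is 1 of the 3 subtypes of group 2 innate lymphoid cells (ILC2) that the authors annotated among lymphoid cells sorted from the synovium of mouse ankles and wrists. Its cells were taken by that label from the authors' deposited cell table and matched by barcode and well to their columns of UMI counts. The label was carried by 535 of the 4491 annotated ILCs (11.9%), and the table holds 8042 cells in all. The other ILC classes are ILC2-1, ILC2-2, ILC3-1, ILC3-2 and Precursors.

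The condition studied was STA + Il23mc, serum transfer arthritis with an interleukin-23 minicircle, set against untreated healthy mice of the same experiment. Each condition filled 1 well with 3 mice told apart by hashtag antibodies, and the ILC2-3 label was carried by 35, 66 and 98 cells of STA + Il23mc mice 1, 2 and 3, against 31, 108 and 29 cells of healthy mice 1, 2 and 3. A further healthy hashtag, with 168 ILC2-3 cells, came from experiment 2, where it shared a well with STA cells. All animals were R5 x R26tdTomato mice of genotype Il5 wt/Cre and R26 tdTom/tdTom, 8 to 10 weeks old. The sort took viable CD45+ tdTomato+ cells without CD3, TCRb, TCRgd, CD11b or GR-1. In such mice Cre is made from the Il5 locus and switches tdTomato on for good, so every class described here passed a gate for present or past Il5 activity, and 1 Il5 allele carries Cre in all groups.

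ILC2 are tissue-resident lymphocytes that depend on the transcription factor GATA3, respond to the epithelial and stromal alarmins IL-33, IL-25 and TSLP, and make the type 2 cytokines IL-5 and IL-13. IL-5 sustains eosinophils, IL-13 acts on macrophages, fibroblasts and epithelium, and amphiregulin and the neuropeptide CGRP are further ILC2 products. Interleukin-23 is best known as a driver of group 3 ILCs and of type 17 T cells, which make IL-17A and IL-22.

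UMIs of ILC2-3 cells were summed per mouse, giving 169970 to 1290719 UMIs a hashtag, and levels are given as counts per 1000000 UMIs of that sum (CPM). The median ILC2-3 cell held 3901 to 7245.5 UMIs and the median cell of the other ILC2 (ILC2-1 and ILC2-2 together) 3283 to 5000.0 UMIs in the same hashtags. No ILC2-3 barcode was shared between wells. Condition and well cannot be told apart in experiment 1, nor can the part of STA and the part of Il23mc, because the STA well holds no annotated cells and was not analysed here. Fewer transcribing cells and less RNA per cell cannot be told apart in sums of this kind. The labels speak of 4 animals pooled per well while each well carries 3 hashtags, and p-values measure the spread between those hashtagged mice.

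The markers that define the label were all there. Gata3, the lineage factor of ILC2, averaged 2128 CPM in ILC2-3 and 988 CPM in other ILC2 over the 7 hashtags (median log2 ratio 1.02, 0.91 to 1.66 over the 7 hashtags). Il1rl1, the IL-33 receptor chain ST2, averaged 1306 CPM in ILC2-3 and 536 CPM in other ILC2 (median log2 ratio 1.38, 0.83 to 1.90 over the 7 hashtags), and the costimulatory receptor Icos 1626 CPM in ILC2-3 and 685 CPM in other ILC2 (median log2 ratio 1.26, 1.03 to 1.52 over the 7 hashtags). Icos did not set ILC2-3 apart from ILC3-2. After cells were thinned to equal depth, an Icos UMI was seen in a median of 83.9% of ILC2-3 cells (75.6 to 95.5%). In ILC3-2 the median was 90.1% (73.3 to 100%). Il2ra, the high-affinity chain of the IL-2 receptor, averaged 1293 CPM in ILC2-3 and 484 CPM in other ILC2 (median log2 ratio 1.56, 0.83 to 1.77 over the 7 hashtags). Of the 26 genes listed as ILC2 identity genes and alarmin receptors, 19 reached 50 CPM in ILC2-3 or in other ILC2, and 13 of these were higher in ILC2-3 in all 7 hashtags while none was lower in all 7. Of all 2528 genes at that level, 519 (20.5%) were higher in all 7 hashtags and 285 (11.3%) lower. Of other lineages, the eosinophil markers Siglecf, Epx, Prg2 and Ear2 were at 0, the 5 macrophage markers summed to 0 to 11.8 CPM a hashtag and the 6 B or plasma cell markers to 0 to 119 CPM. The 9 T cell markers summed to 608 to 908 CPM a hashtag, with Cd8a at 0 UMIs. The 8 mast cell or basophil markers summed to 386 to 513 CPM a hashtag, most of it Kit (404 CPM on average), which ILC2 also use. Hdc was the other of these markers with enough UMIs for a test between conditions. Tpsb2, Mcpt8 and Ms4a2 were at 0 UMIs. Because the label rests on the same transcripts, the comparison with other classes is a description and carries no test.

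The cells under this label carried the type 2 cytokine messages of the synovial ILCs. Il5 (chromosome 11, 53720794 to 53725106, plus strand in mm10) averaged 2611 ± 951 CPM in ILC2-3 (SD over 7 hashtags), against 459.5 CPM in ILC2-2, 53.0 CPM in ILC2-1, 156 CPM in ILC3-2, 50.7 CPM in ILC3-1 and 36.3 CPM in Precursors. The lowest ILC2-3 hashtag (1759.8 CPM) lay above the highest hashtag of each other class, of which ILC2-2 reached 608 CPM. Il13 (chromosome 11, 53631324 to 53634702, minus strand), the neighbouring type 2 cytokine gene, averaged 1363 ± 792 CPM in ILC2-3, against 371 CPM in ILC2-2, 339 CPM in ILC3-2 and 56.0 CPM in ILC2-1. Here the classes overlapped across hashtags, with 532 to 2605 CPM in ILC2-3 and 51.4 to 783 CPM in ILC2-2, while within each hashtag ILC2-3 stood above the rest of the ILC2 (median log2 ratio 2.50, 1.68 to 4.21 over the 7 hashtags).

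Other secreted products split. Calca, which encodes CGRP, averaged 1060.4 CPM in ILC2-3 and 191 CPM in other ILC2 (median log2 ratio 2.72, 1.74 to 4.19 over the 7 hashtags). Csf2, the cytokine GM-CSF, was higher in ILC2-3 in all 7 hashtags (median log2 ratio 1.44). Areg, amphiregulin, was shared more evenly, at 1588 CPM in ILC2-3 and 991 CPM in other ILC2, and was higher in ILC2-3 in 6 of the 7 hashtags (median log2 ratio 0.80). Il2 went the other way: this T cell and ILC growth factor averaged 37.6 CPM in ILC2-3, 283 CPM in ILC2-2 and 50.8 CPM in ILC2-1. Tnf and Lif were lower in ILC2-3 in all 7 hashtags too (median log2 ratio -2.39 and -1.53). Il4 was near 27.1 CPM in ILC2-3 and 32.9 CPM in ILC2-2, with no common direction over the hashtags.

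**Figure D1:**
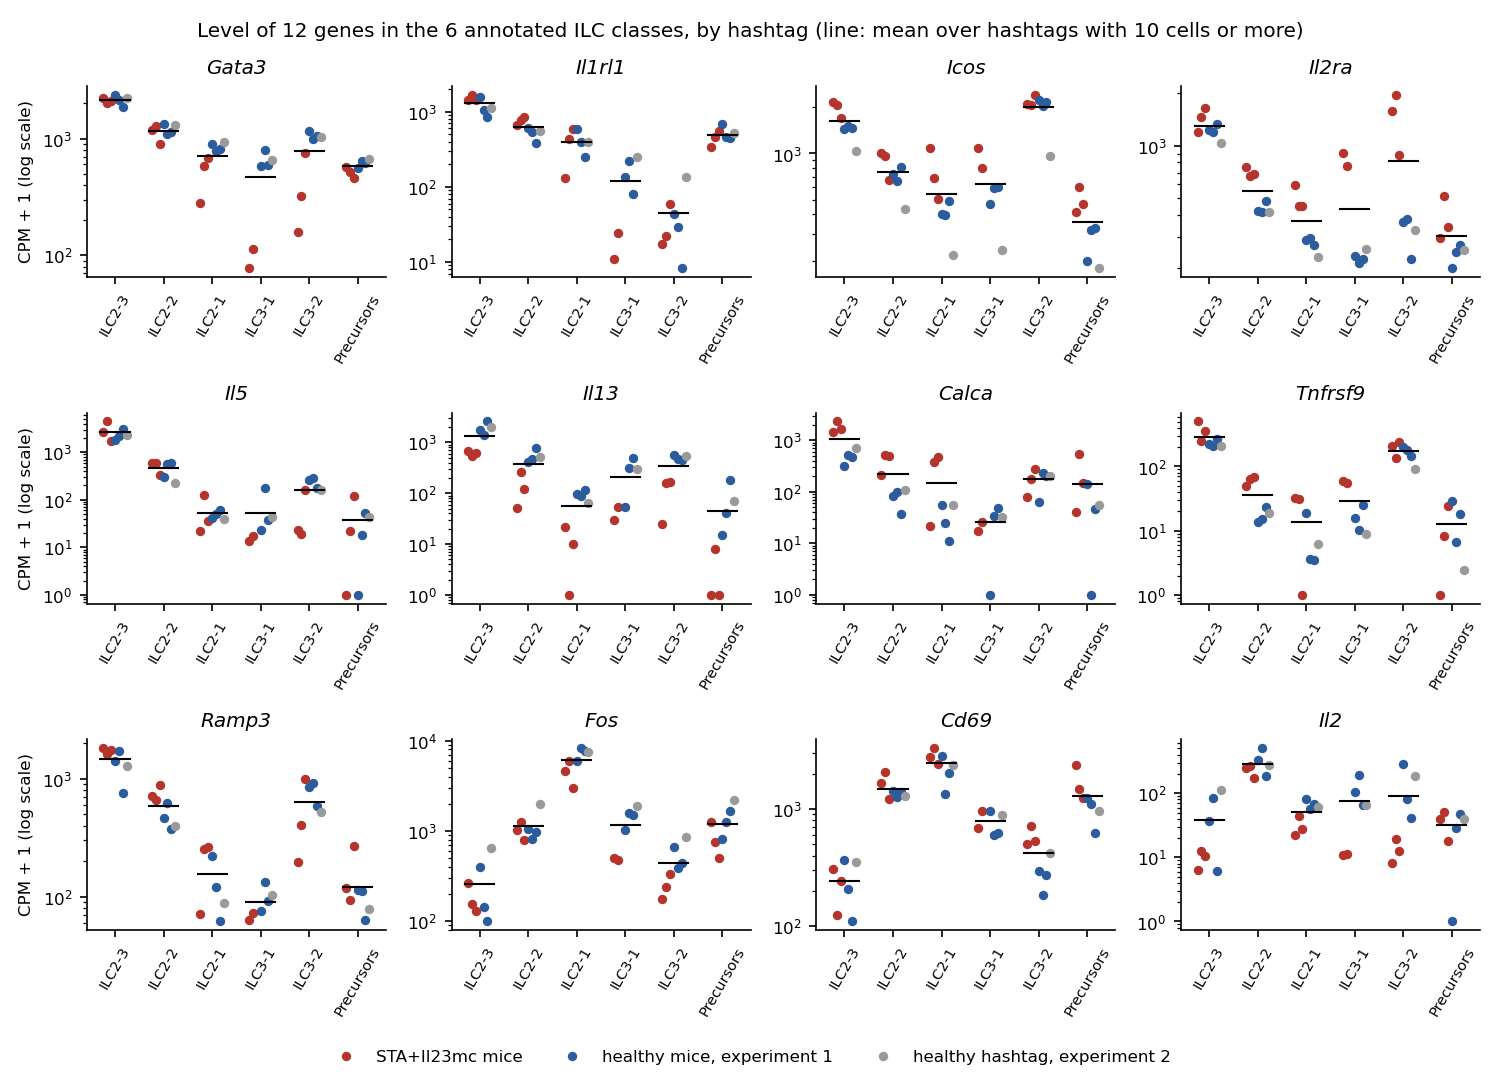
CPM + 1 on a log axis for 12 genes in the 6 annotated ILC classes, ILC2-3 at the left. Each point is 1 hashtag (red STA + Il23mc mice, blue healthy mice of experiment 1, grey the healthy hashtag of experiment 2) and each line the mean over hashtags with at least 10 cells of the class. Il5 in ILC2-3 lies above every other class in every hashtag, while Fos and Cd69 in ILC2-3 lie below ILC2-1 and ILC2-2.

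To see whether many cells or a few carried these messages, each cell was thinned to 2000 UMIs, which sets all classes to 1 depth. All 535 ILC2-3 cells were deep enough, the shallowest holding 2004 UMIs. An Il5 UMI was then seen in 60.2 to 84.8% of ILC2-3 cells per hashtag (median 71.4%), against 17.7 to 25% in ILC2-2 and medians of 11.6% in ILC3-2, 6.99% in ILC2-1, 4.09% in ILC3-1 and 2.13% in Precursors. How much of these shares is background was not tested, and every class passed the gate for present or past Il5 activity. Without thinning, the medians were 86.2% in ILC2-3 and 29.6% in ILC2-2. Il5 and Il13 UMIs met in the same cell in 20.4 to 48.3% of ILC2-3 cells (median 41.7%), against 1.20 to 11.4% in ILC2-2 (median 8.46%). Gata3 was seen in 86.2 to 96.8% of thinned ILC2-3 cells and in 66.7 to 82.5% of thinned ILC2-2 cells.

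**Figure D2:**
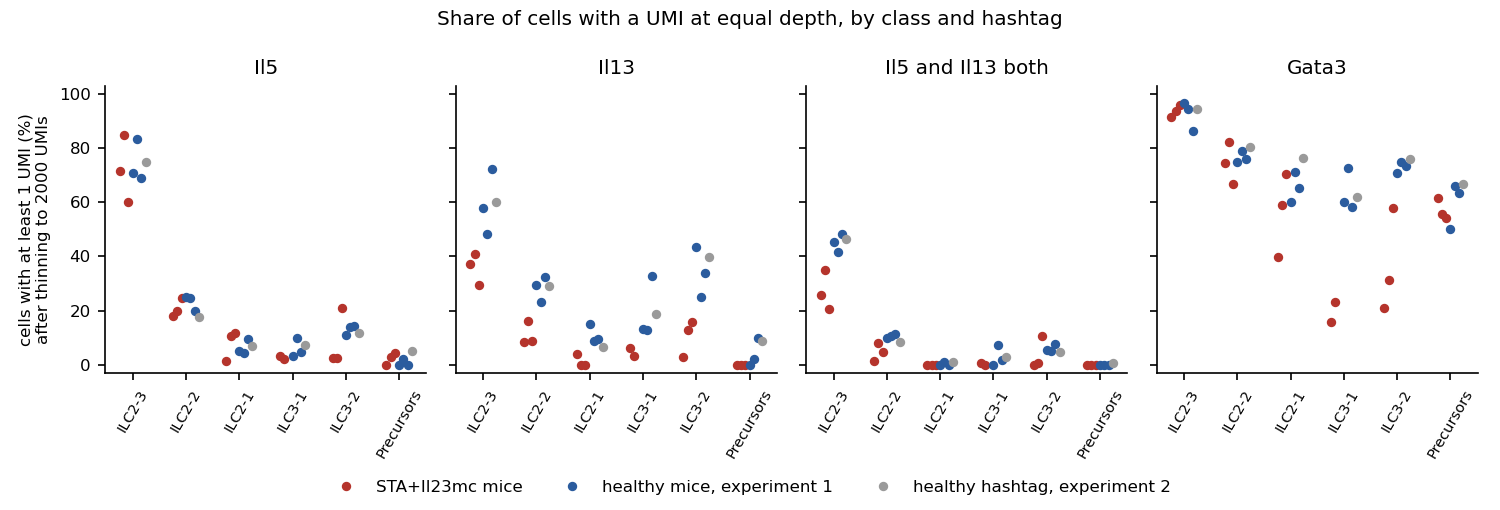
Percent of cells with at least 1 UMI of the gene after each cell was thinned to 2000 UMIs, by class and hashtag, with ILC2-3 at the left (red STA + Il23mc mice, blue healthy mice of experiment 1, grey the healthy hashtag of experiment 2). The Il5 shares of ILC2-3, 60.2 to 84.8%, stand clear of all other classes, and the pair Il5 and Il13 lies lower in the 3 STA + Il23mc mice (20.4 to 34.8%) than in the healthy ones.

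Across the transcriptome, 2528 genes reached 50 CPM in one of the ILC2 classes compared. Of these, 35 (1.38%) were at least 2-fold higher in ILC2-3 in all 7 hashtags and 19 (0.752%) at least 2-fold lower in all 7. The median of all 2528 genes was 0.08 on the log2 scale.

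The genes that were highest relative to other ILC2 fall into receptors, signalling and lipid genes as well as cytokines. Tnfrsf9, the costimulatory receptor 4-1BB, averaged 288 CPM in ILC2-3 and 28.3 CPM in other ILC2 (median log2 ratio 3.84, 2.26 to 4.19 over the 7 hashtags). It was also seen in a median of 20.8% of thinned ILC3-2 cells, against 31.0% of thinned ILC2-3 cells and 5.71% of thinned ILC2-2 cells. The inhibitory receptor gene Pdcd1, which encodes PD-1, averaged 295 CPM in ILC2-3 and 77.2 CPM in other ILC2 (median log2 ratio 2.34, 1.53 to 5.73 over the 7 hashtags), and Ccr4, a chemokine receptor of type 2 lymphocytes, 105 CPM in ILC2-3 and 14.4 CPM in other ILC2 (median log2 ratio 2.64). Tph1, the first enzyme of peripheral serotonin synthesis, averaged 56.1 CPM in ILC2-3 and 4.81 CPM in other ILC2 and varied from 0 to 161 CPM between ILC2-3 hashtags. Dgat2, an enzyme of triglyceride synthesis, was higher in ILC2-3 in every hashtag as well (median log2 ratio 2.26). Acod1, which makes itaconate, averaged 74.6 CPM in ILC2-3 and 7.31 CPM in other ILC2 but gave no UMI in ILC2-3 of healthy mice 1 and 3. The lowest log2 ratio in any hashtag was 2.36 for Il5, 2.12 for Ccr4, 2.12 for the membrane protein Basp1 and 1.71 for the DNA-binding protein Nabp1, against 0.27 for the activation antigen Cd83.

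Single genes of cytokine and neuropeptide signalling stood high, while 4 of 16 genes of the cytokine signalling feedback list that reached 50 CPM were higher in ILC2-3 in all 7 hashtags and 2 lower (list median 0.01). Jak2, the kinase of many cytokine receptors, averaged 569 CPM in ILC2-3 and 167 CPM in other ILC2 (median log2 ratio 1.80, 1.60 to 2.07 over the 7 hashtags), and Stat4, a transcription factor downstream of IL-12 and IL-23 receptors, 345 CPM in ILC2-3 and 101 CPM in other ILC2 (median log2 ratio 1.76, 1.36 to 2.80 over the 7 hashtags). Il23r itself averaged 1.57 CPM in ILC2-3, against 47.8 CPM in ILC3-2, and gave 4 UMIs in the 3 STA + Il23mc mice and 1 UMI in the 3 healthy mice. Ramp3, which turns the calcitonin receptor-like receptor towards adrenomedullin, averaged 1485 CPM in ILC2-3 and 434 CPM in other ILC2 (median log2 ratio 1.83, 1.21 to 2.31 over the 7 hashtags). Its receptor partner Calcrl did not stand apart (median log2 ratio 0.19), and Ramp1, the partner that makes the CGRP receptor, was lower in ILC2-3 in 6 of the 7 hashtags (median log2 ratio -0.41).

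Many immediate early genes were lower in ILC2-3 than in other ILC2. Fos, a subunit of the AP-1 factor, averaged 261 CPM in ILC2-3, 1126 CPM in ILC2-2 and 6150.4 CPM in ILC2-1. Egr1, Fosb and the mRNA decay factor Zfp36 were likewise lower in all 7 hashtags (median log2 ratio -3.29, -2.38 and -2.72), and so were the retention receptor Cd69 (-2.61) and the chaperone Hspa1b (-2.93). A Cd69 UMI was seen in a median of 32.7% of thinned ILC2-3 cells, near the 38.2% of ILC3-2 and below the 72.3% of ILC2-2. Of 23 immediate early and dissociation genes that reached 50 CPM, 14 were lower in ILC2-3 in all 7 hashtags, against 11.3% of all genes, and 3 were higher, against 20.5%, with a list median of -0.75. These genes also respond to tissue digestion, and the part of sample handling in the difference was not tested. The fraction of mitochondrial UMIs in the median ILC2-3 cell was 3.03 to 5.22% a hashtag, against 3.89 to 5.97% in other ILC2.

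Against healthy mice, ILC2-3 cells of STA + Il23mc mice carried more RNA of most tested interferon-responsive genes, of Cd74, B2m, Dgat2, Calca and Pdcd1, and less Il13. Of 3229 genes tested, 232 passed an adjusted p of 0.05 with the quasi-likelihood test of edgeR and Benjamini-Hochberg adjustment (7.18%), 141 of them higher (4.37%) and 91 lower (2.82%). The 2 sets of 3 mice did not overlap for 227 of the 232 genes, against 24.7% of all genes tested, a count made from the same values as the calls. Without healthy mouse 2, which holds 108 of the 168 ILC2-3 cells of the 3 healthy mice, 120 genes were called, 74 of them higher and 46 lower. The healthy hashtag of experiment 2, which took no part in the test, lay nearer the healthy mean for 190 of the 232 genes and nearer the STA + Il23mc mean for 42. For 18 of the 232 genes it lay within or past the STA + Il23mc mice. These counts were made for called genes only, so no share over all genes tested stands beside them.

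**Figure D3:**
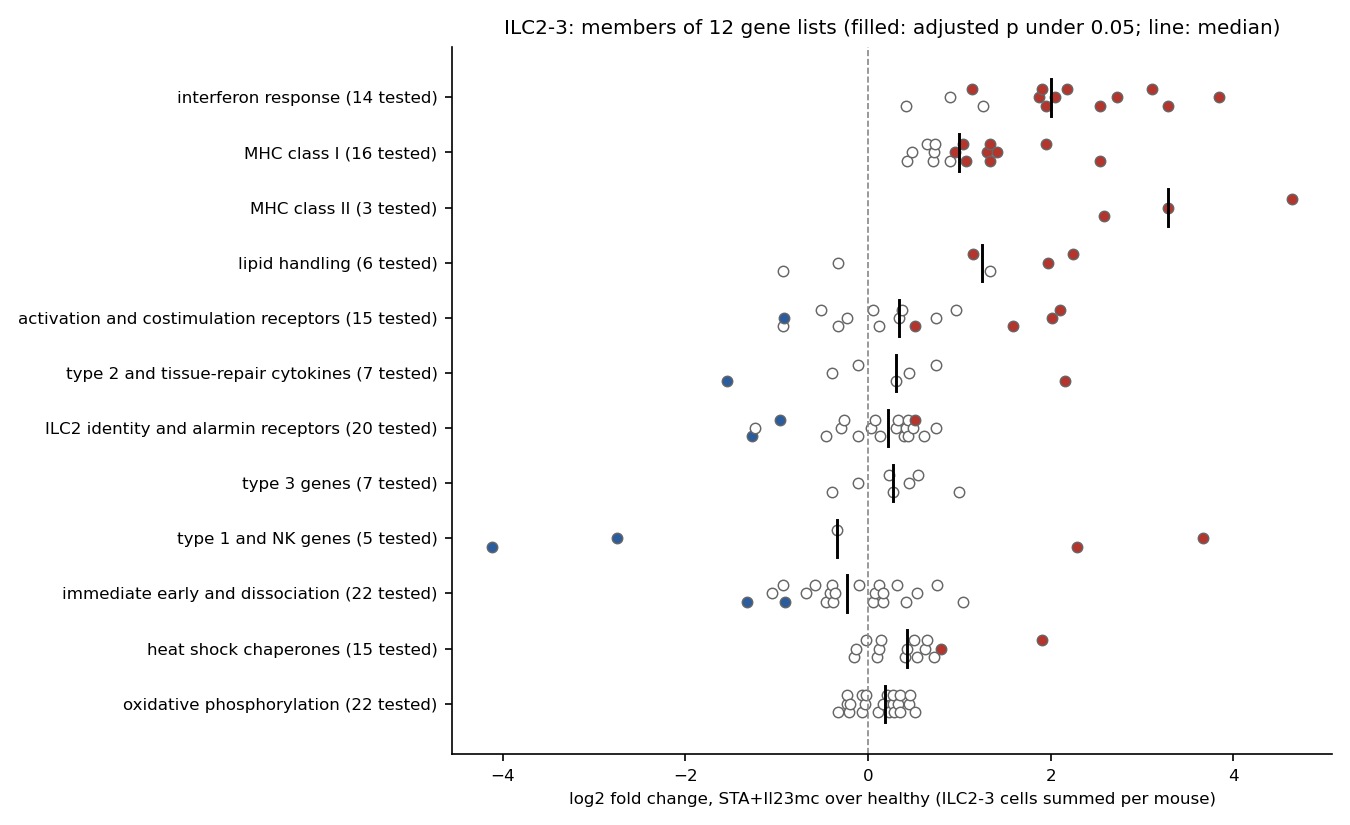
Log2 fold change of STA + Il23mc over healthy mice in summed ILC2-3 cells for the tested members of 12 gene lists. Filled points passed an adjusted p of 0.05 (red higher, blue lower) and lines mark list medians. The interferon list (median 2.00) and the MHC class II list (median 3.28) lie to the right, while oxidative phosphorylation (median 0.19) sits near 0.

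The interferon response list held the most calls: 11 of its 14 tested members rose and the other 3 did not pass, with a median log2 fold change of 2.00 beside 0.00 over all genes tested. The list has 30 genes, and those not tested had too few UMIs. Without healthy mouse 2, 6 of 12 tested members were called, all higher. Gbp2, an interferon-induced GTPase, was at 193, 68.3 and 92.2 CPM in STA + Il23mc mice 1, 2 and 3, against 0, 10.9 and 5.18 CPM in healthy mice 1, 2 and 3, and at 8.52 CPM in the healthy hashtag of experiment 2 (log2 fold change 3.84, SE 0.55, adjusted p = 0.000430, edgeR). All 3 STA + Il23mc mice lay above all healthy ones. The immunity-related GTPases Irgm1 and Tgtp2 rose by 3.11 and 3.29. The value of Tgtp2 is uncertain because a near-identical paralog, Tgtp1, can share its reads. Ly6a, the surface protein Sca-1, averaged 1312 ± 230.2 CPM in STA + Il23mc mice and 351 ± 138 CPM in healthy mice (SD, n = 3 each; log2 fold change 2.05, SE 0.26, adjusted p = 0.000139, edgeR). Irf1, Gbp4, Gbp7, Ifi47, Psmb9 and Tap1 also rose, by 1.14 to 2.72. Ifng was at 0 to 5.37 CPM in STA + Il23mc mice and at 0 in all healthy ones.

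Promoters of these genes are shown because the genes moved together and the factors of interferon signalling have known recognition letters. RefSeq promoter sequences (GRCm38.p6) were found for 8 of the 11 genes, and the 250 bases before the start of transcription were searched on both strands for the gamma-activated site TTCNNNGAA and for the interferon-stimulated response element, searched as GAAA, any 2 bases and GAAA. Matches stand in capitals:
Gbp2, chr3:142620594-142620623, plus strand: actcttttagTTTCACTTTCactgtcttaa
Gbp7, chr3:142530273-142530302, plus strand: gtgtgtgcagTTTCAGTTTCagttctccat
Gbp7, chr3:142530229-142530258, plus strand: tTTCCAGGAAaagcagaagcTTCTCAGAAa
Irf1, chr11:53769914-53769942, plus strand: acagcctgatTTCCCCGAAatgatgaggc
Irgm1, chr11:48871428-48871457, minus strand: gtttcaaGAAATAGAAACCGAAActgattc
Tgtp2, chr11:49064269-49064297, minus strand: ccatTTCCAGGAAtcGAAACCGAAAccta

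In Gbp2 and in the first Gbp7 window the element reads on the opposite strand, as TTTC, 2 bases and TTTC, beginning 59 and 53 bases before the start. In Irgm1 2 copies of the element overlap, and in Tgtp2 a gamma-activated site 81 bases before the start stands 2 bases from an element. Of 9 promoters of the 8 genes, 3 held the gamma-activated site and 4 the response element, and 5 held at least 1 of them. Among all 32851 promoters of the table, 7.02% held the first, 2.98% the second and 9.66% at least 1. A match is a description of letters, and binding was not measured.

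All 3 tested genes of the MHC class II list rose: Cd74, the invariant chain, was at 865, 449.8 and 315 CPM in STA + Il23mc mice 1, 2 and 3, against 5.88, 32.8 and 10.4 CPM in healthy mice 1, 2 and 3 (log2 fold change 4.64, SE 0.46, adjusted p = 2.28e-05, edgeR). The groups did not overlap, and the healthy hashtag of experiment 2 held 40.3 CPM. Ctss, a lysosomal protease acting on that chain, rose by 2.59 (adjusted p = 0.00173, edgeR), and the class II chain H2-Aa by 3.28 (adjusted p = 0.00385), a call that was lost without healthy mouse 2 (adjusted p = 0.0876). The class II RNA was spread unevenly over many cells: 65.7, 54.5 and 33.7% of ILC2-3 cells of STA + Il23mc mice 1, 2 and 3 held a UMI of Cd74, H2-Aa, H2-Ab1 or H2-Eb1, against 3.23, 13.9 and 13.8% in healthy mice 1, 2 and 3. The top 5% of cells held 45.9 to 54.8% of these UMIs in the STA + Il23mc mice. In the healthy mice they held 66.7 to 100%, of only 1 to 27 UMIs a mouse. Ciita, the master regulator of class II genes, was at 0 UMIs in all 7 hashtags. Dendritic cell markers other than H2-Aa were below the level needed for a test, with Flt3 and Siglech at 0 UMIs. The part of free RNA from antigen-presenting cells was not tested.

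Of 16 tested genes of the MHC class I list, 9 rose and 7 did not pass, with a list median of 1.00. Tap1 and Psmb9, among those that rose, are also on the interferon response list and were counted there too. The class I list summed to 11965 to 12577 CPM in STA + Il23mc mice and 6067 to 6507 CPM in healthy mice. The healthy hashtag of experiment 2 stood between them at 8524 CPM. B2m, the light chain of every class I molecule, was at 4835, 4879 and 4409 CPM in STA + Il23mc mice 1, 2 and 3, against 2006, 1629 and 2072 CPM in healthy mice 1, 2 and 3 (log2 fold change 1.41, SE 0.13, adjusted p = 1.03e-05, edgeR). The groups lay far apart relative to their spread. The heavy chain H2-K1 rose by 1.04 and the peptide-loading factor Tapbp by 1.31. H2-Q7 rose by 1.34 and H2-Q6 by 1.08, near-identical genes between which reads cannot be split with certainty.

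Among the type 2 and tissue-repair cytokines the members went separate ways, with 1 of 7 tested genes higher, 1 lower and 5 that did not pass. Calca (chromosome 7, 114631478 to 114636357, minus strand) was at 1429, 2334 and 1656 CPM in STA + Il23mc mice 1, 2 and 3, against 312, 511 and 466 CPM in healthy mice 1, 2 and 3. Every STA + Il23mc mouse exceeded every healthy one, and the gene rose (log2 fold change 2.16, SE 0.22, adjusted p = 3.14e-05, edgeR). The healthy hashtag of experiment 2 stood between the groups at 715 CPM. Il13 was at 672, 532 and 629 CPM in STA + Il23mc mice 1, 2 and 3, against 1718, 1401 and 2605 CPM in healthy mice 1, 2 and 3, and at 1986 CPM in experiment 2. It fell in STA + Il23mc mice (log2 fold change -1.54, SE 0.20, adjusted p = 0.000198, edgeR), again with no overlap. After thinning to 2000 UMIs, an Il13 UMI was seen in 37.1, 40.9 and 29.6% of ILC2-3 cells of STA + Il23mc mice 1, 2 and 3, against 58.1, 48.1 and 72.4% of those of healthy mice 1, 2 and 3.

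Il5 did not pass the test. It was at 2654, 4486 and 1759.8 CPM in STA + Il23mc mice 1, 2 and 3, against 1794, 2176 and 3098 CPM in healthy mice 1, 2 and 3, so the groups overlapped and the most and the least Il5 were both found in STA + Il23mc mice (log2 fold change 0.45, SE 0.27, adjusted p = 0.394, edgeR). Areg was at 1741, 2510.3 and 972 CPM in STA + Il23mc mice 1, 2 and 3, against 971, 1033 and 1373 CPM in healthy mice 1, 2 and 3, with 2515 CPM in the healthy hashtag of experiment 2 (log2 fold change 0.75, SE 0.27, adjusted p = 0.116, edgeR). It overlapped as well, and passed only when STA + Il23mc mouse 3 was left out (adjusted p = 0.00620). Csf2 had a log2 fold change of 0.31 and did not pass either. Gata3 averaged 2099 ± 104 CPM in STA + Il23mc mice and 2125 ± 256 CPM in healthy mice (log2 fold change 0.08, SE 0.13, adjusted p = 0.815, edgeR), and Il1rl1 and Il2ra did not pass (log2 fold change 0.50 and 0.30). Of 20 tested ILC2 identity genes, Icos rose by 0.52 and Il18r1 and Hlf fell, by 1.27 and 0.96. Without healthy mouse 2 the adjusted p was 0.108 for Icos, 0.228 for Il18r1 and 0.0684 for Hlf (edgeR). Icos also lost its call without each other mouse but STA + Il23mc mouse 3 (adjusted p 0.0873 to 0.170), and Il18r1 without STA + Il23mc mouse 1 or 2 (0.0747 and 0.103).

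**Figure D4:**
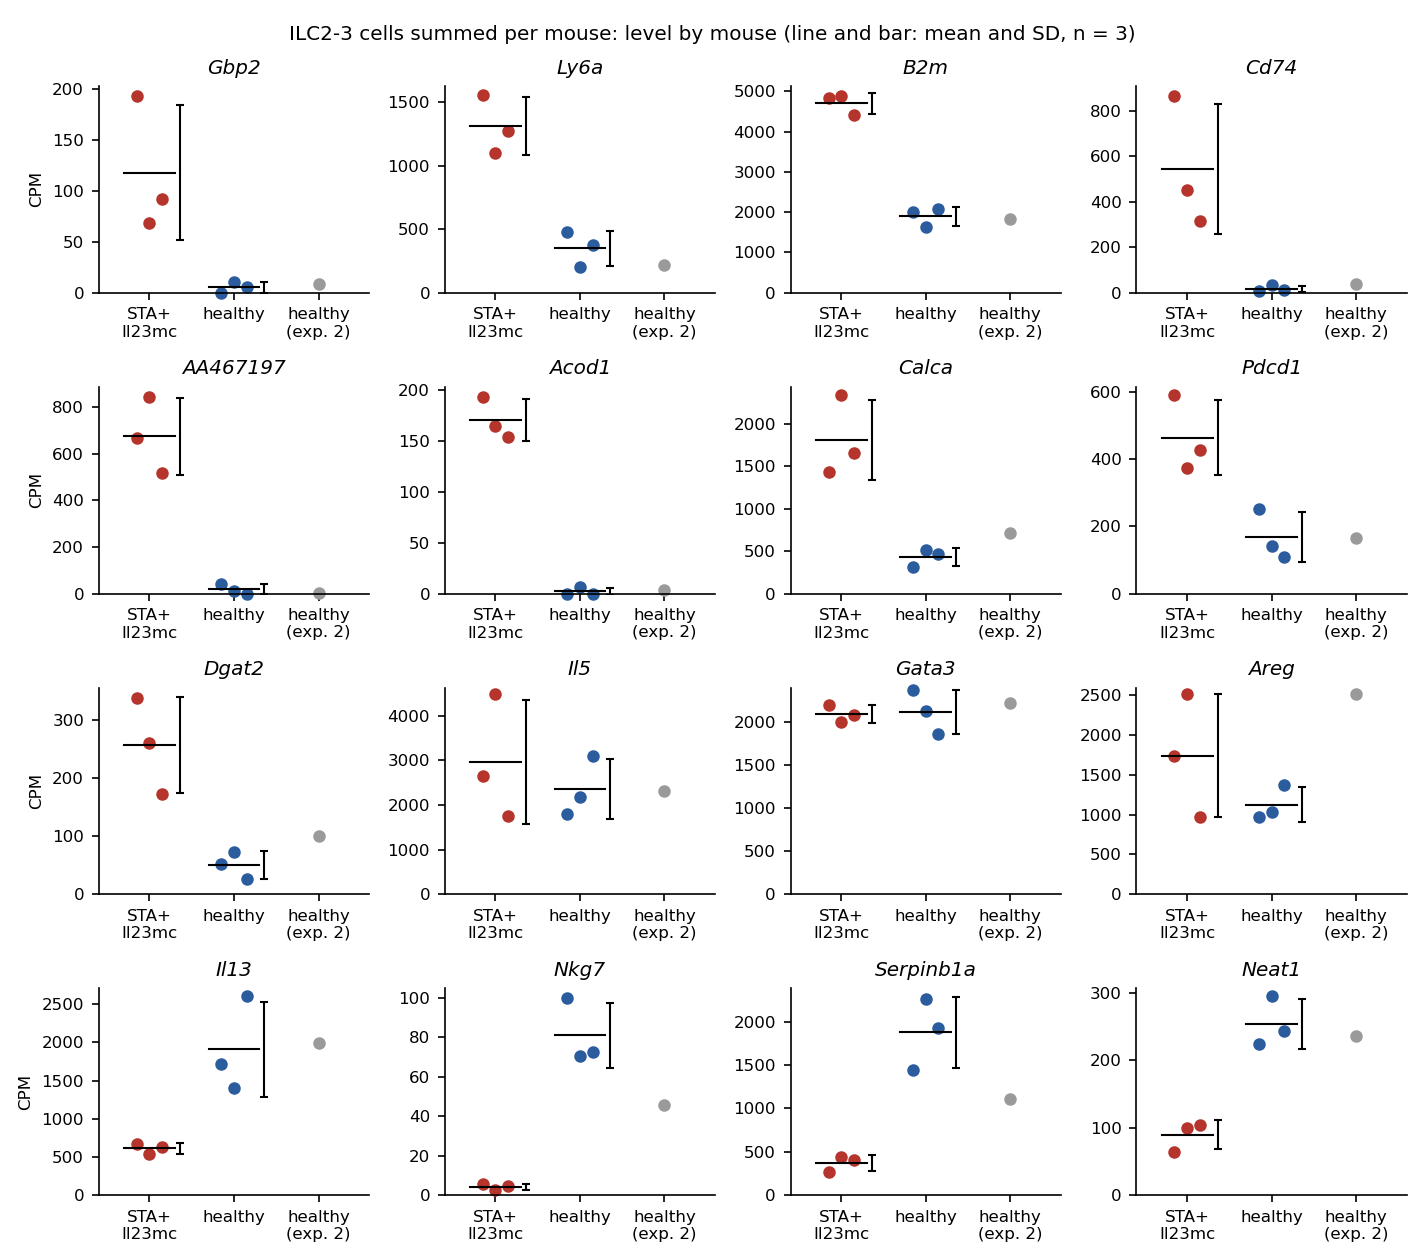
CPM of 16 genes in ILC2-3 cells summed per mouse, with STA + Il23mc mice at the left (red), healthy mice of experiment 1 beside them (blue) and the healthy hashtag of experiment 2 at the right (grey). Lines and bars give the mean and SD of 3 mice. Gbp2, B2m, Cd74 and Calca separate the groups upwards, Il13, Nkg7, Serpinb1a and Neat1 downwards, and Il5, Gata3 and Areg overlap.

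The activation and costimulation receptors showed 4 rises and 1 fall among 15 tested genes. Pdcd1 was at 591, 374 and 428 CPM in STA + Il23mc mice 1, 2 and 3, against 253, 142 and 109 CPM in healthy mice 1, 2 and 3 (log2 fold change 1.59, SE 0.28, adjusted p = 0.00201, edgeR), without overlap. The inhibitory receptors Lilrb4a and Lilr4b, close paralogs whose reads may be exchanged, rose by 2.11 and 2.01. Cd28, the classical costimulatory receptor of T cells, fell by 0.92 (adjusted p = 0.0378, edgeR), while the healthy hashtag of experiment 2 lay nearer the STA + Il23mc mice for it. Tnfrsf9, which set ILC2-3 apart from other ILC2, did not pass (log2 fold change 0.74, SE 0.25, adjusted p = 0.0898, edgeR). Ctla4, a further inhibitory receptor, gave 38 UMIs in STA + Il23mc mice and 0 in healthy mice, at least 12.3-fold higher when 3 UMIs over the healthy group are taken as the limit of a count of 0. It was too sparse for the test.

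In the lipid handling list 3 of 6 tested genes rose and the other 3 did not pass, and 15 of its 21 genes had too few UMIs for the test. Dgat2, the triglyceride synthase that already marked ILC2-3, was at 338, 261 and 173 CPM in STA + Il23mc mice 1, 2 and 3, against 53.0, 73.5 and 25.9 CPM in healthy mice 1, 2 and 3 (log2 fold change 2.24, SE 0.34, adjusted p = 0.000589, edgeR). The groups did not overlap. Dgat1, which catalyses the same step, rose by 1.16 and the lipid-droplet coat protein Plin2 by 1.97. Plin2 lost its call without healthy mouse 2 (adjusted p = 0.0651, edgeR). Hilpda, an inhibitor of the lipase ATGL on lipid droplets, averaged 3108 ± 585 CPM in STA + Il23mc mice and 1468 ± 134 CPM in healthy mice (SD, n = 3 each; log2 fold change 1.18, SE 0.14, adjusted p = 0.000119, edgeR), but the healthy hashtag of experiment 2, at 2382 CPM, lay nearer the STA + Il23mc mice. None of 22 oxidative phosphorylation genes passed with edgeR or DESeq2, and 3 had an unadjusted p under 0.05. Of 13 glycolysis and hypoxia genes Eno1 and Gapdh fell, and the call of Gapdh was lost without any 1 of the mice but STA + Il23mc mouse 2 (adjusted p 0.0658 to 0.151).

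The largest single rises, those of Neb, AA467197, Acod1 and Ly6c1, were in genes outside these lists. AA467197, the mouse ortholog of the human gene NMES1, was at 666, 845 and 516 CPM in STA + Il23mc mice 1, 2 and 3, against 41.2, 12.5 and 0 CPM in healthy mice 1, 2 and 3 (log2 fold change 5.53, SE 0.45, adjusted p = 8.48e-06, edgeR). Acod1 was at 193, 165 and 154 CPM in STA + Il23mc mice 1, 2 and 3, against 0, 6.25 and 0 CPM in healthy mice 1, 2 and 3 (log2 fold change 5.40, SE 0.46, adjusted p = 8.48e-06, edgeR). Only genes without overlap of the groups were ranked among the largest changes. The healthy hashtag of experiment 2 held 3.87 CPM of AA467197 and 3.87 CPM of Acod1. Neb, the muscle protein nebulin, gave 40 UMIs in STA + Il23mc mice and 0 in healthy mice, at least 12.9-fold higher. Ly6c1, a surface protein of the same family as Ly6a, rose by 5.33. The chemokine Ccl5, of the type 1 and NK list, rose by 3.67. Ptgs2, the inducible prostaglandin synthase COX-2, averaged 161 ± 38.7 CPM in STA + Il23mc mice and 26.0 ± 23.9 CPM in healthy mice (SD, n = 3 each), while the healthy hashtag of experiment 2 held 110 CPM, and its adjusted p was 0.00252 with edgeR, 0.324 with DESeq2 and 0.114 with that hashtag added to the healthy group. Cxcl10, an interferon-induced chemokine, was at 408, 75.4 and 44.9 CPM in STA + Il23mc mice and 0, 23.4 and 0 CPM in healthy mice, so 1 mouse held most of it, and the call was lost without STA + Il23mc mouse 1 (adjusted p = 0.0576), without healthy mouse 2 (0.0592) and with DESeq2 (0.160).

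The largest falls included genes of cytotoxic lymphocytes. Nkg7, a granule protein of cytotoxic lymphocytes, was at 5.37, 2.35 and 4.73 CPM in STA + Il23mc mice 1, 2 and 3, against 100, 70.3 and 72.5 CPM in healthy mice 1, 2 and 3 (log2 fold change -4.11, SE 0.49, adjusted p = 0.000114, edgeR). Klrk1, the activating receptor NKG2D, averaged 41.4 ± 27.9 CPM in STA + Il23mc mice and 267 ± 127 CPM in healthy mice (SD, n = 3 each; log2 fold change -2.75, SE 0.42, adjusted p = 0.000750, edgeR), but only 69.0 CPM in the healthy hashtag of experiment 2. Within the type 1 and NK list, Ccl5 and the kinase Txk rose while Nkg7 and Klrk1 fell, so the 5 tested members had no common direction. Txk was called through healthy mouse 2 (adjusted p = 0.132 without it). Tbx21, Eomes and Ncr1, which define ILC1 and NK cells, were at 0 UMIs in every hashtag.

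Serpinb1a, an inhibitor of neutrophil elastase and related proteases, was at 269, 443 and 404 CPM in STA + Il23mc mice 1, 2 and 3, against 1447, 2261 and 1927 CPM in healthy mice 1, 2 and 3 (log2 fold change -2.21, SE 0.21, adjusted p = 1.86e-05, edgeR). The STA + Il23mc mice lay far below, and the healthy hashtag of experiment 2, at 1109 CPM, was nearer to them than to the healthy mean. Tnfsf9, the ligand of 4-1BB, fell (log2 fold change -2.64), and so did Dmxl2, a regulator of the vesicular proton pump (-2.61), Sfn, the protein 14-3-3 sigma (-2.43), and the membrane protein Emp1 (-3.77). Eno1, a glycolytic enzyme with a near-identical copy in Eno1b, averaged 36.5 ± 9.10 CPM in STA + Il23mc mice and 197 ± 72.0 CPM in healthy mice, with 101 CPM in experiment 2. Acbd5 and Crip2 fell as well, yet Acbd5 lost its call without healthy mouse 1 (adjusted p = 0.0702, edgeR), and Crip2 without healthy mouse 2 (0.109) or STA + Il23mc mouse 2 (0.0731).

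Most genes of the immediate early and heat shock lists, which can be signs of handling, did not pass. Their list medians were -0.23 and 0.43 on the log2 scale. An unadjusted p under 0.05 (edgeR) was reached by 7 of 22 and 8 of 15 members, against 642 of all 3229 genes tested. The part of handling in these values was not tested. Of 22 immediate early and dissociation genes tested, Klf6 and Nr4a2 fell and 20 did not pass, and Nr4a2 lost its call without STA + Il23mc mouse 1 or 3 or healthy mouse 1 (adjusted p 0.0703 to 0.105). Of 15 heat shock genes, Hsp90aa1 rose by 0.80 and Hspa1b by 1.91, while the groups overlapped for Hspa1b, the healthy hashtag of experiment 2 held 228 CPM of it, and its adjusted p was 0.999 with that hashtag added. Hspa1b also lost its call without STA + Il23mc mouse 2 or 3 or healthy mouse 2 (0.0759 to 0.216). Of 17 trafficking genes, S1pr1, the receptor by which lymphocytes leave tissue, and the integrin chain Itgb1 fell, while the chemokine receptor Cxcr4, the signalling brake Rgs1 and the proton-sensing receptor Gpr65 rose. Leaving out 1 mouse ended the call of S1pr1 (adjusted p up to 0.202, healthy mouse 2), Itgb1 (up to 0.118, healthy mouse 3), Cxcr4 (up to 0.144, STA + Il23mc mouse 3) and Rgs1 (up to 0.108, healthy mouse 2). H2afz, a histone variant, was the 1 gene of 11 in the cell cycle list to pass, with 2076 ± 249.7 CPM in STA + Il23mc mice and 1333 ± 107 CPM in healthy mice.

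Type 3 genes, the known targets of interleukin-23, were scarce in ILC2-3. None of the 7 tested members of that list passed with edgeR or DESeq2, and 2 had an unadjusted p under 0.05. Il22 gave 37 UMIs in the 3 STA + Il23mc mice and 0 in the 3 healthy ones, at 32.2, 11.8 and 61.5 CPM in STA + Il23mc mice and 0, 0 and 0 CPM in healthy mice. In the other ILC2 of the same STA + Il23mc mice it averaged 622 CPM. Il17a was at 16.1, 58.9 and 21.3 CPM in STA + Il23mc mice and 0, 26.6 and 5.18 CPM in healthy mice in ILC2-3. The groups overlapped through healthy mouse 2, whose 26.6 CPM came from 1 of its 108 ILC2-3 cells. T cell receptor constant genes were present in both groups, with 288 ± 43.4 CPM in STA + Il23mc mice and 199 ± 30.0 CPM in healthy mice for Trbc2, which did not pass. A UMI of Cd3d, Cd3e or Cd3g was found in 3, 9 and 16 ILC2-3 cells of STA + Il23mc mice 1, 2 and 3, against 2, 11 and 2 of healthy mice 1, 2 and 3, and without these cells 249 genes were called.

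Whether the condition acted on ILC2-3 in the same way as on ILC2-1 and ILC2-2 of the same mice was asked with an interaction term. Of 5820 genes tested, 2 differed in their effect (0.0344%) at an adjusted p of 0.05 with edgeR, while 352 had an unadjusted p under 0.05. Neat1, a nuclear long noncoding RNA (chromosome 19, 5824708 to 5845478, minus strand), was at 64.5, 98.9 and 104 CPM in STA + Il23mc mice 1, 2 and 3, against 224, 295 and 243 CPM in healthy mice 1, 2 and 3 in ILC2-3. It fell there with no overlap (log2 fold change -1.38, SE 0.24, adjusted p = 0.00206, edgeR), while in other ILC2 it averaged 404 ± 101 CPM in STA + Il23mc mice and 303 ± 69.4 CPM in healthy mice (SD, n = 3 each). The effects differed by a log2 value of -1.79 (SE 0.29, adjusted p = 0.00844, edgeR). Il17a averaged 375 CPM in other ILC2 of STA + Il23mc mice and 0.715 CPM in those of healthy mice, a difference of effects of -6.91 (adjusted p = 0.0236, edgeR). Cd3g moved with it in other ILC2, at 422 CPM in STA + Il23mc mice and 64.4 CPM in healthy mice. Without cells that held a Cd3 UMI, Il17a had too few UMIs left to be tested and Neat1 was called again (adjusted p = 0.000848). Both calls were lost without healthy mouse 2 (adjusted p = 0.194 for Neat1 and 0.993 for Il17a). In that mouse, 1 of 108 ILC2-3 cells held all the Il17a UMIs of the class.

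For the genes that changed most in ILC2-3 the interaction was not called, and the other ILC2 of the same mice gave these values. Cd74 had a log2 fold change of 4.64 in ILC2-3 and 3.97 in other ILC2, B2m 1.41 and 1.36, Il13 -1.54 and -1.79. Acod1 had 5.40 in ILC2-3 and 2.75 in other ILC2, a difference of 3.02 (SE 0.96, adjusted p = 0.600, edgeR). Serpinb1a had -2.21 and -0.83 (adjusted p of the difference 0.120, edgeR). An adjusted p above the threshold does not show that the effects were equal.

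ILC2-3 cells made up 18.3, 22.3 and 38.0% of the ILC2 cells of STA + Il23mc mice 1, 2 and 3, against 16.9, 25.9 and 12.7% of those of healthy mice 1, 2 and 3, and 168 of 799 ILC2 cells in the healthy hashtag of experiment 2. The Wilson 95% intervals, which cover counting error only, ran from 32.3 to 44.0% for STA + Il23mc mouse 3 and from 8.96 to 17.6% for healthy mouse 3. The groups overlapped. The difference of the means was 7.70 percentage points (two-sided exact permutation test, p = 0.4, n = 3 each), in a design in which 3 against 3 mice cannot give a p below 0.1. Since genes that set ILC2-3 apart, such as Calca, Il13 and Pdcd1, also differed between the conditions, the shares are given as values and not read as a change in cell number.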

How the data were processed

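Synovial ILCs of 3 wells of 10x 3-prime single-cell RNA-seq were used. The authors deposited raw UMI counts per gene and cell, aligned to mm10 per the submitters' processing notes. The version of Cell Ranger is 6.1.2 per the file headers, whereas those notes name 6.0.6. A table the authors deposited gives each kept cell's class and hashtag call, its counts of UMIs and genes, the mitochondrial fraction of its UMIs, and a hashtag margin score. How classes, calls and doublets were decided is not given in the sources used here, and no further doublet call was made. The deposited counts per cell of UMIs and genes equalled those recomputed from the matrices.

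Here UMIs of ILC2-3 cells were summed per hashtag and tested in edgeR 4.0.16 under R 4.3.3 (quasi-likelihood, filterByExpr, TMM) at a Benjamini-Hochberg adjusted p of 0.05. The fit used the 6 mice of experiment 1. The difference of effects was the interaction of class and condition with the mouse as a block. Tests were tried on simulated data first. The description against other ILC2 used genes averaging 50 CPM or more in either class and ratios with 1 UMI added to each sum, at a fold of 2. Cells were thinned to 2000 UMIs for shares of cells, with at least 10 cells a hashtag and class. Shares of ILC2 were compared with a two-sided exact permutation test. Gene positions came from GENCODE M21 and promoters from RefSeq (GRCm38.p6). Sums and figures were made in Python 3.11.15 with pandas 2.3.3, scipy 1.17.1, matplotlib 3.10.9 and numpy 2.4.6.

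The members, the 27 gene lists and the tests were chosen with earlier results of these data known. The genes named are up to 10 higher and 10 lower of the largest called changes with at least 20 CPM in a group and no overlap, up to 4 called members of each list or the 2 of lowest adjusted p, the markers Gata3, Il1rl1, Icos and Il2ra with Il5, Il13 and Areg, up to 15 genes higher and 10 lower against other ILC2 in every hashtag, and called differences of effects. Sex-linked, mitochondrial, ribosomal protein, antigen receptor and predicted genes were left out of the ranked choices, and a few genes that the rule names are not reported here. Any other gene named (further list members, paralogs, lineage markers at or near 0, and Csf2, Il4, Lif, Il22, Ctla4, Ifng, Il23r, Jak2, Stat4, Ramp1, Ramp3, Calcrl and Hilpda among them) was chosen after its values were seen. Alternatives were DESeq2 1.42.0, upper-quartile factors, no filter on low counts, the hashtag number as a block, leaving out each mouse, adding the healthy hashtag of experiment 2, leaving out cells with a Cd3d, Cd3e or Cd3g UMI, and cells of at least 2000 UMIs.

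For the description against other ILC2 the alternatives were a minimum of 20 CPM, all other annotated ILC as the comparison and the mice of experiment 1 alone, and for the share of cells all annotated ILC as the denominator. Fibroblast wells and the STA well were not used here.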

Additional observations from a re-analysis of the deposited data

Results flagged for a closer look

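Neat1 drew attention because its change under STA + Il23mc differed between ILC2-3 and the other ILC2 of the same mice, by -1.79 on the log2 scale in a test of the interaction (adjusted p = 0.00844, edgeR). Within ILC2-3 all 3 STA + Il23mc mice lay below all 3 healthy mice. Il17a was picked out by the same test, with a difference of effects of -6.91 (adjusted p = 0.0236, edgeR). It averaged 32.1 CPM in STA + Il23mc mice and 10.6 CPM in healthy mice in ILC2-3, and 375 CPM in STA + Il23mc mice and 0.715 CPM in healthy mice in other ILC2. Neither was called without healthy mouse 2 (adjusted p = 0.194 for Neat1 and 0.993 for Il17a, edgeR) or without the mouse as a block (0.0977 and 0.987). The Il17a UMIs of ILC2-3 in healthy mouse 2 all came from 1 of 108 cells.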

How the results depend on the processing

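In the comparison of STA + Il23mc with healthy mice, 232 genes were called, and 174 with DESeq2, 226 with upper-quartile factors, 301 with no filter on low counts, 245 with the healthy hashtag of experiment 2 added and 249 without cells holding a Cd3 UMI. The minimum of 2000 UMIs a cell removed no ILC2-3 cell, the shallowest holding 2004 UMIs, so that fit only repeats the main one. Leaving out 1 mouse at a time gave 120 to 237 calls, 74 to 156 of them higher and 46 to 81 lower, with the fewest without healthy mouse 2. Of 52 named genes that were called, 46 were called with DESeq2, 34 of 47 tested without healthy mouse 2, and 35 whichever mouse was left out. Uncalled genes whose direction turned were Pecam1 (-0.11 to 0.34 over the left-out mice), Gata3 (-0.013 to 0.18) and Il5 (-0.019 to 0.75). Hashtag numbers do not mark shared animals, and deviations of same-numbered mice correlated at 0.0464, -0.0872 and -0.1091 over 3223 genes. The fit with that number as a replicate block called 217 genes, 138 higher and 79 lower.

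The difference of effects was called for 2 genes, for 2 with upper-quartile factors, 16 with no filter, 5 without cells holding a Cd3 UMI, and 0 without the mouse as a replicate block (292 genes at an unadjusted p under 0.05, edgeR). With 1 mouse left out it was called for 0 to 8 genes, with 0 without healthy mouse 2 (279 at an unadjusted p under 0.05), 5 without STA + Il23mc mouse 1 or 2 and 8 without STA + Il23mc mouse 3. The cause was not tested. The difference in the ILC2-3 share stayed positive, at 4.74 points of all annotated ILC, 7.07 with the healthy hashtag of experiment 2 and 1.81 to 11.6 with 1 mouse left out. Against all other annotated ILC, 30 genes were at least 2-fold higher in every hashtag and 12 lower, against 35 and 19 for other ILC2. Adding 1 UMI to sums of unequal size raises the ratio of the smaller one, which was ILC2-3 in all 7 hashtags. With the added count in proportion to each sum, an alternative chosen after seeing the data, 31 genes were at least 2-fold higher and 19 lower, 477 of all genes were higher and 316 lower in all 7 hashtags at any size, 12 of 19 ILC2 identity genes were higher, and Acod1 and Tph1 no longer were in every hashtag. Sums of 29 to 108 cells a mouse limit the test to 3229 genes.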

Other observations

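Of 18 tested genes of cytokine signalling and its feedback, 2 rose in ILC2-3 of STA + Il23mc mice, Myc among them, and 16 did not pass, with a list median of 0.47. Myc, a transcription factor of growth, was at 91.3, 118 and 128 CPM in STA + Il23mc mice and 82.4, 53.2 and 36.3 CPM in healthy mice (log2 fold change 1.14, SE 0.29, adjusted p = 0.0269, edgeR). Its call was lost with DESeq2 (adjusted p = 0.0888), with the healthy hashtag of experiment 2 added (0.0704), without cells holding a Cd3 UMI (0.0528), and without STA + Il23mc mouse 2 or 3 or healthy mouse 2 or 3 (0.0697 to 0.158). Of 4 tested ILC precursor markers, Pdcd1 rose, Il18r1 fell and 2 did not pass.

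Markers of other cells gave these values in ILC2-3. Neither of 2 tested T cell markers, neither of 2 mast cell or basophil markers and not the 1 tested endothelial marker passed, while 1 tested dendritic cell marker, H2-Aa, rose. No B or plasma cell, macrophage, neutrophil, eosinophil, fibroblast or red cell marker had enough UMIs to be tested. The summed level of the 4 neutrophil markers was 11.8 to 42.6 CPM in STA + Il23mc mice and 0 in all healthy mice of experiment 1, and that of the 6 fibroblast markers 30.6 to 43.0 CPM in STA + Il23mc mice and 9.38 to 11.8 CPM in healthy mice. The 6 B or plasma cell markers summed to 0 to 11.8 CPM in STA + Il23mc mice and 0 to 119 CPM in healthy mice, and the 4 red cell markers to 0 to 16.1 CPM in STA + Il23mc mice and 11.8 to 67.3 CPM in healthy mice. The part of such RNA in the results was not tested.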
